A study of Mus musculus with 61 samples.

Results

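Splenic T cells of Stat5b Y665F mice were compared with those of wild-type (WT) mice after culture for 24 h with interleukin-2 (IL-2) and interleukin-7 (IL-7). The members were chosen by sample title and were 8 of the 61 RNA-seq libraries of the series, 4 Y665F and 4 WT. The labels give all 8 as T cells from spleen of C57BL/6 mice aged 2 months, and the 2 groups share the strain, the age, the selection of T cells and both interleukins. They do not state whether the Y665F mice carried 1 or 2 mutant alleles, and neither the interleukin doses nor a separate culture for each replicate is stated. Y665F is a germline knock-in, so every cell of the animal carried it, and the study notes that T cell subsets differ in proportion in the mutant mice. Fewer cells of a type and less RNA per cell cannot be told apart in these bulk libraries. The p-values for single genes in this comparison measure the spread between libraries. That spread was estimated over the 15 splenic T cell libraries of the fit, which include these 8. The others were T cells of mice with the mutation Y665H, cultured with both interleukins, and Y665F T cells without interleukin, also at 2 months.

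IL-2 and IL-7 bind receptors that share the common gamma chain, and both activate the kinases JAK1 and JAK3, which phosphorylate STAT5A and STAT5B. Phosphorylated STAT5 dimers enter the nucleus and bind the GAS motif near genes such as Cish and Socs2, whose products feed back on the receptor. In T cells this pathway is known for survival, division, regulatory T cell maintenance and CD8 effector and memory differentiation. The mutated tyrosine lies in the SH2 domain, which holds STAT5 dimers together.

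The mutation was made with a guide RNA and a repair oligonucleotide, which are shown because they define the allele. The guide is printed 5′ to 3′ with its PAM in capitals, and the repair sequence is set beside the GENCODE transcript with the mutated codon in capitals.
Guide RNA: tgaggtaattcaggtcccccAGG
Reference Stat5b: gggggacctgaatTACctcatatatgtgt
Repair oligonucleotide: gggggacctgaatTTTctcatatatgtgt
The codon lies in exon 16 of Stat5b, in coding sequence on the minus strand, at chr11:100787291-100787293 of GRCm38. Counted from the first base of the printed stretch, the oligonucleotide differs from the reference at A15T and C16T, which turn the tyrosine codon into a phenylalanine codon. The study's methods also describe a silent base change meant to remove the PAM, which was not found in the oligonucleotide as listed, so whether the mice carried it is not known here. A count per gene does not show this codon, so the counts cannot check the genotype labels.

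Y665F replicates 3 and 4 stood apart from the other 6 libraries. Reads assigned to genes ranged from 2851451 in Y665F replicate 3 to 27394249 in WT replicate 3, so that 3 reads corresponded to 0.915 CPM, the count of a gene scaled to the size of its library, in the shallowest library and to at most 0.249 CPM in the other 7. For each read on a gene there were 3.65 reads on no annotated feature in Y665F replicate 3 and 2.68 in Y665F replicate 4, against 0.952 to 1.92 in the other 6. The 17 tested B cell markers summed to 1212 CPM in Y665F replicate 3 and 338 CPM in Y665F replicate 4, against 37.0 to 189 CPM in the rest. The 13 tested red cell markers summed to 1746 CPM in Y665F replicate 3 and to between 244 and 332 CPM in the other 7. The 16 T cell markers summed to 2122 CPM in Y665F replicate 3 and 3151 CPM in Y665F replicate 4, against 4221 to 5377 CPM elsewhere, and none of them was at 0 in any library. The B cell regulator Pax5 shows the pattern, with 47.0 and 7.21 CPM in Y665F replicates 3 and 4 and at most 1.91 CPM in the other 6 libraries.

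The neutrophil markers behaved differently. Their 14 tested members summed to 14.3 to 24.9 CPM in the 4 WT libraries and to 96.9, 100.1, 346 and 102 CPM in Y665F replicates 1 to 4, so the groups did not overlap, although in every library the sum was small beside that of the T cell markers. The difference from WT was not particular to Y665F. In the Y665H libraries with both interleukins the sum was 26.8 to 107 CPM, also above every WT library. A further difference was ribosomal RNA: the precursor gene Rn45s took 2.78% and 4.49% of gene reads in Y665F replicates 2 and 4, 0.446% in Y665F replicate 3 and 0.0706% to 0.183% in the other 5. Plasma cell markers summed to 222 to 280 CPM in Y665F and 119 to 177 CPM in WT cells. Most of that was Xbp1, which averaged 159 CPM in Y665F and 107 CPM in WT cells. Of the 8 members tested 7 had a positive change and 0 were called, and Sdc1 averaged 0.347 and 0.515 CPM. NK cell markers summed to 265 to 380 CPM in Y665F and 161 to 379 CPM in WT cells, and the macrophage, dendritic cell and platelet sums overlapped too. With the summed B cell markers as a covariate the calls described next went from 257 higher and 85 lower to 94 and 40, with the red cell markers to 80 and 25, and with the reads on no feature, a covariate chosen after the data were seen, to 5 and 0.

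**Figure D1:**
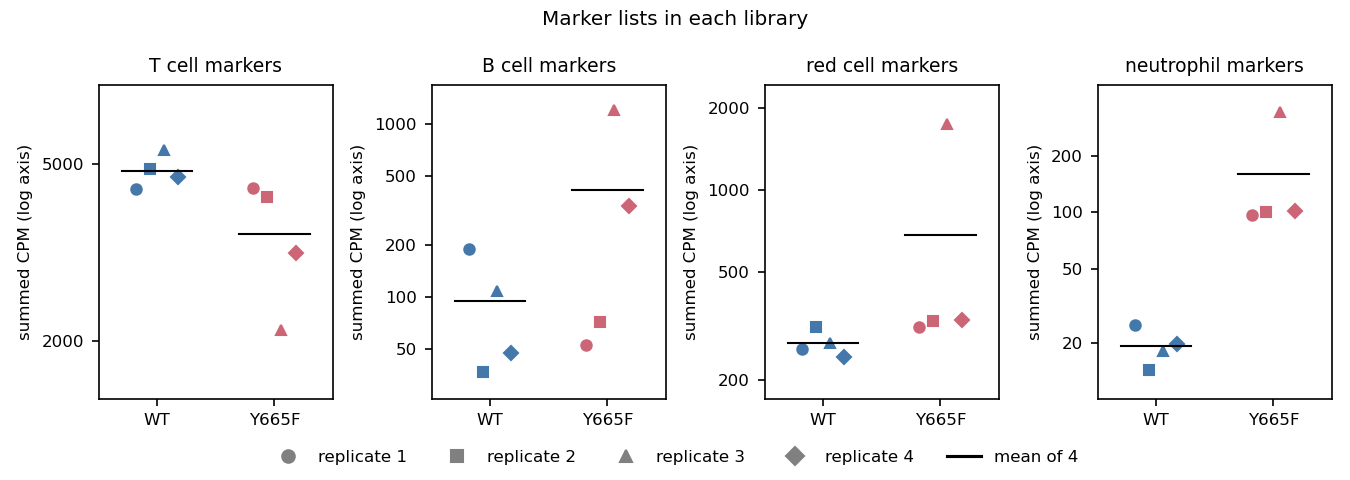
Summed CPM (log axis) of the T cell, B cell, red cell and neutrophil marker lists in the 4 WT and 4 Y665F libraries, with a symbol for each replicate and a line at the mean of 4. Y665F replicate 3 is the highest for B cell and red cell markers, at 1212 and 1746 CPM, while all 4 Y665F libraries lie above all 4 WT libraries for neutrophil markers.

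In the comparison of Y665F with WT T cells, 257 of 22313 genes tested were called higher (1.15%) and 85 were called lower (0.381%), 1.53% in either direction. A call required an adjusted p (edgeR's quasi-likelihood test, Benjamini-Hochberg) under 0.05 and a change above 1 on the log2 scale. The median log2 fold change was 0.07 over all genes tested, and 0.21 with the RLE scaling of DESeq2 in edgeR, which put 85.5% of the calls on the higher side against 75.1%. Scaling to library totals (86.3%), DESeq2 (87.3%) and scaling to the T cell markers (98.4%) moved this share in the same direction. All 4 Y665F libraries were above all 4 WT libraries for 199 of the genes called higher and below them for 83 of the genes called lower; over all genes tested these shares were 4.62% and 5.25%. Of the genes called higher, 150 had their highest value in Y665F replicate 3 and 15 belonged to a marker list. The counts depended on the libraries included. Without WT replicate 4 alone, 93 genes were called higher and 43 lower. Without Y665F replicates 3 and 4, which stood apart, edgeR's quasi-likelihood test called 5 of 22109 genes higher (0.0226%) and 0 lower. In that fit 1342 had an unadjusted p under 0.05. The 5 called were S100a8, S100a9, Il1rn, Ier3 and Mir6236. Of these, Mir6236 was at 20.7 CPM in Y665F replicate 1, against at most 18.9 CPM in WT, and at 455 CPM in Y665F replicate 2. Leaving out 2 of 4 libraries also lowers the power of the test, and no other pair was left out. How much of the loss came from those 2 libraries in particular was not tested. The direction was less dependent, since 249 of the 257 and all 85 had the same sign in the fit without those 2 libraries; these genes had been called with Y665F replicates 1 and 2 among the data. The median change of the genes called higher went from 1.80 to 1.28 on the log2 scale, and that of the genes called lower from -1.26 to -0.94. Of 79 called genes named in the text, 5 stayed called without those 2 libraries, 49 with the B cell covariate and 39 with the red cell covariate, so the calls that follow are those of all 8 libraries. The least stable were S1pr1, Uhrf1, Runx3, Gbp8, Cd28, Cd4, Pax5, Cd80, Irf8, Nav1, H2-DMb1 and Lifr, whose calls were kept under 6 to 10 of 21 alternatives.

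The components of the pathway itself changed little. Stat5b was measured at 157, 164, 214 and 125 CPM in WT replicates 1 to 4 and at 127, 137, 91.8 and 162 CPM in Y665F replicates 1 to 4, and its paralog Stat5a at 36.4 to 73.4 and 43.0 to 53.2 CPM. The groups overlapped for both, with a log2 fold change (± SE) of -0.35 ± 0.20 for Stat5b and -0.05 ± 0.22 for Stat5a in edgeR (adjusted p = 0.324 and 0.911). The sign for Stat5a depended on the scaling. Of 15 STAT and JAK family genes, 1 was called higher, Stat2, a subunit of the interferon-activated factor ISGF3, at 64.5 to 91.7 CPM in WT and 125, 88.4, 212 and 255 CPM in Y665F replicates 1 to 4, with an overlap (1.10 ± 0.24, edgeR adjusted p = 0.0184). Without Y665F replicates 3 and 4 the change of Stat2 was 0.43 (edgeR adjusted p = 0.813).

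Among the receptor genes, Il7r, which encodes the IL-7 receptor alpha chain, fell. It was measured at 939, 789.7, 708 and 1001 CPM in WT and at 459, 414, 247 and 231 CPM in Y665F cells. Every Y665F library was below every WT library, and the log2 fold change was -1.35 ± 0.23 (edgeR adjusted p = 0.00476), or -0.98 without Y665F replicates 3 and 4 (edgeR adjusted p = 0.17). It was the only one of 9 common gamma-chain receptor genes called in either direction, which depended on the scaling. Il15ra was at 8.07 to 13.1 CPM in WT and 15.6 to 21.7 CPM in Y665F cells (0.84 ± 0.27, edgeR adjusted p = 0.0973). Scaled to the T cell markers, Il15ra (1.39, edgeR adjusted p = 0.0113) and Il4ra (1.41, edgeR adjusted p = 0.0182) were called higher. Il7r, at -0.88, was not called there, and the median over all genes was 0.59. Il2ra, the alpha chain that gives the IL-2 receptor its high affinity, was at 157, 125, 89.8 and 108 CPM in WT and 193, 254, 158 and 175 CPM in Y665F cells, with no overlap, but did not pass the test (0.70 ± 0.31, edgeR adjusted p = 0.206). The beta chain Il2rb overlapped, at 217 to 458 and 190.0 to 541 CPM.

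The feedback genes of the pathway did not pass the test in these stimulated cells. Cish, an inhibitor of the receptor complex, was at 14.8, 27.4, 43.0 and 13.1 CPM in WT and 37.8, 39.7, 19.2 and 52.4 CPM in Y665F cells (log2 fold change 0.61 ± 0.40, edgeR adjusted p = 0.386). WT replicates 1 and 4 were the lowest and WT replicate 3 was above 3 of the 4 Y665F libraries. Socs2 (0.40 ± 0.31) and Socs1 (-0.06 ± 0.32, a sign that depended on the scaling) were likewise not called. Of 24 tested SOCS genes and classic STAT5 targets, 2 were called higher and 0 lower, with a list median of 0.15 against 0.07 over all genes tested. The 2 were the cytokine gene Lif and Nav1, which encodes a microtubule-associated neuron navigator protein.

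Cytokines and their receptors held some of the clearest changes. Ifng, the gene for interferon gamma, was at 3.49, 4.77, 4.78 and 1.71 CPM in WT and 18.3, 12.9, 14.9 and 25.1 CPM in Y665F cells, so that the lowest Y665F library was well above the highest WT library. Its log2 fold change was 2.26 ± 0.36 (edgeR adjusted p = 0.00322), and 2.07 without Y665F replicates 3 and 4 (edgeR adjusted p = 0.0669). Lif, a cytokine of the IL-6 family, was at 2.00, 1.81, 3.01 and 0.918 CPM in WT and 10.5, 5.31, 17.7 and 19.6 CPM in Y665F cells (2.75 ± 0.48, edgeR adjusted p = 0.00476). Csf1, the macrophage growth factor, completed the 3 genes called among 28 cytokines, none of which was called lower (1.80 ± 0.41). The list median was 0.34.

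Il12rb2, a subunit of the receptor for IL-12, was at 50.0, 26.6, 21.8 and 13.6 CPM in WT and 88.4, 71.7, 111 and 135 CPM in Y665F cells (1.86 ± 0.30, edgeR adjusted p = 0.00311), with no overlap. Of 23 other cytokine receptors 4 were called higher and 0 lower, and the remaining 3 were of different kinds. Il1rl1, the IL-33 receptor, was at 4.08 to 8.15 CPM in WT and 14.7 to 20.2 CPM in Y665F cells, and Il1r2, a decoy receptor for IL-1 known from neutrophils, at 0.652 to 0.984 and 3.12 to 10.7 CPM. Lifr, the receptor for Lif, was at 1.48 and 2.48 CPM in Y665F replicates 1 and 2, within the WT range of 1.36 to 3.08 CPM, and reached 92.7 and 17.5 CPM in the replicates 3 and 4 that carried B cell and red cell markers.

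The cytotoxic granule genes Gzmb and Gzma rose. Gzmb, which encodes granzyme B, was at 129, 125, 112 and 59.5 CPM in WT and 593, 285, 210.1 and 298 CPM in Y665F cells, with no overlap (1.71 ± 0.41, edgeR adjusted p = 0.0297). Its change was as large without Y665F replicates 3 and 4, at 2.05, but did not pass the test there (edgeR adjusted p = 0.107). Gzma was at 196 CPM in WT replicate 1, at 52.1 to 73.7 CPM in the other WT libraries and at 189.5 to 294 CPM in Y665F cells, so that WT replicate 1 overlapped with the mutant group (1.30 ± 0.31, edgeR adjusted p = 0.028). They were the 2 called of 20 cytotoxic granule genes. Of 24 CD8 effector and memory genes, Ifng and Runx3 were called higher; Runx3, a CD8 lineage factor, was at 37.6 to 113 CPM in WT and 108 to 210.4 CPM in Y665F cells, with an overlap between the highest WT and the lowest Y665F library. Eomes, a transcription factor of memory CD8 cells, separated the groups at 50.9 to 77.5 and 90.6 to 158 CPM without passing the test (0.98 ± 0.27, edgeR adjusted p = 0.0569). None of 18 killer lectin-like receptors was called by edgeR's quasi-likelihood test.

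Genes for ligands and receptors that tune T cell activation were called 5 times higher and 1 time lower among 20 tested, with a list median of 0.43. Cd274, the gene for PD-L1, was at 103, 68.0, 84.8 and 43.6 CPM in WT and 236, 146, 276 and 392 CPM in Y665F cells (1.81 ± 0.28, edgeR adjusted p = 0.00294), with no overlap. The second PD-1 ligand Pdcd1lg2 (1.95 ± 0.41) and the CD28 ligands Cd80 (1.76 ± 0.41) and Cd86 (1.32 ± 0.30) were called higher as well. These ligands are known mainly from antigen-presenting cells, of which the B cell sums are given above. Dendritic cell markers summed to 80.3 to 139.6 CPM in WT and 120 to 174 CPM in Y665F cells. Macrophage and monocyte markers summed to 236 to 335 and 218 to 407 CPM. Which cells the ligand reads came from was not tested. Entpd1, the ectoenzyme CD39 found on regulatory T cells, rose by 1.36 ± 0.30. Entpd1 and Il1rl1 were the 2 regulatory T cell genes called higher among 22, and the list median was -0.07. The receptor Cd28 itself fell, from 348, 259, 179 and 271 CPM in WT to 150.4, 173, 55.8 and 91.2 CPM in Y665F cells (-1.16 ± 0.29, edgeR adjusted p = 0.0371). Tnfrsf9, the costimulatory receptor 4-1BB, was at 22.8 to 44.3 CPM in WT and 46.7 to 124 CPM in Y665F cells but did not pass the test (1.23 ± 0.34, edgeR adjusted p = 0.061).

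**Figure D2:**
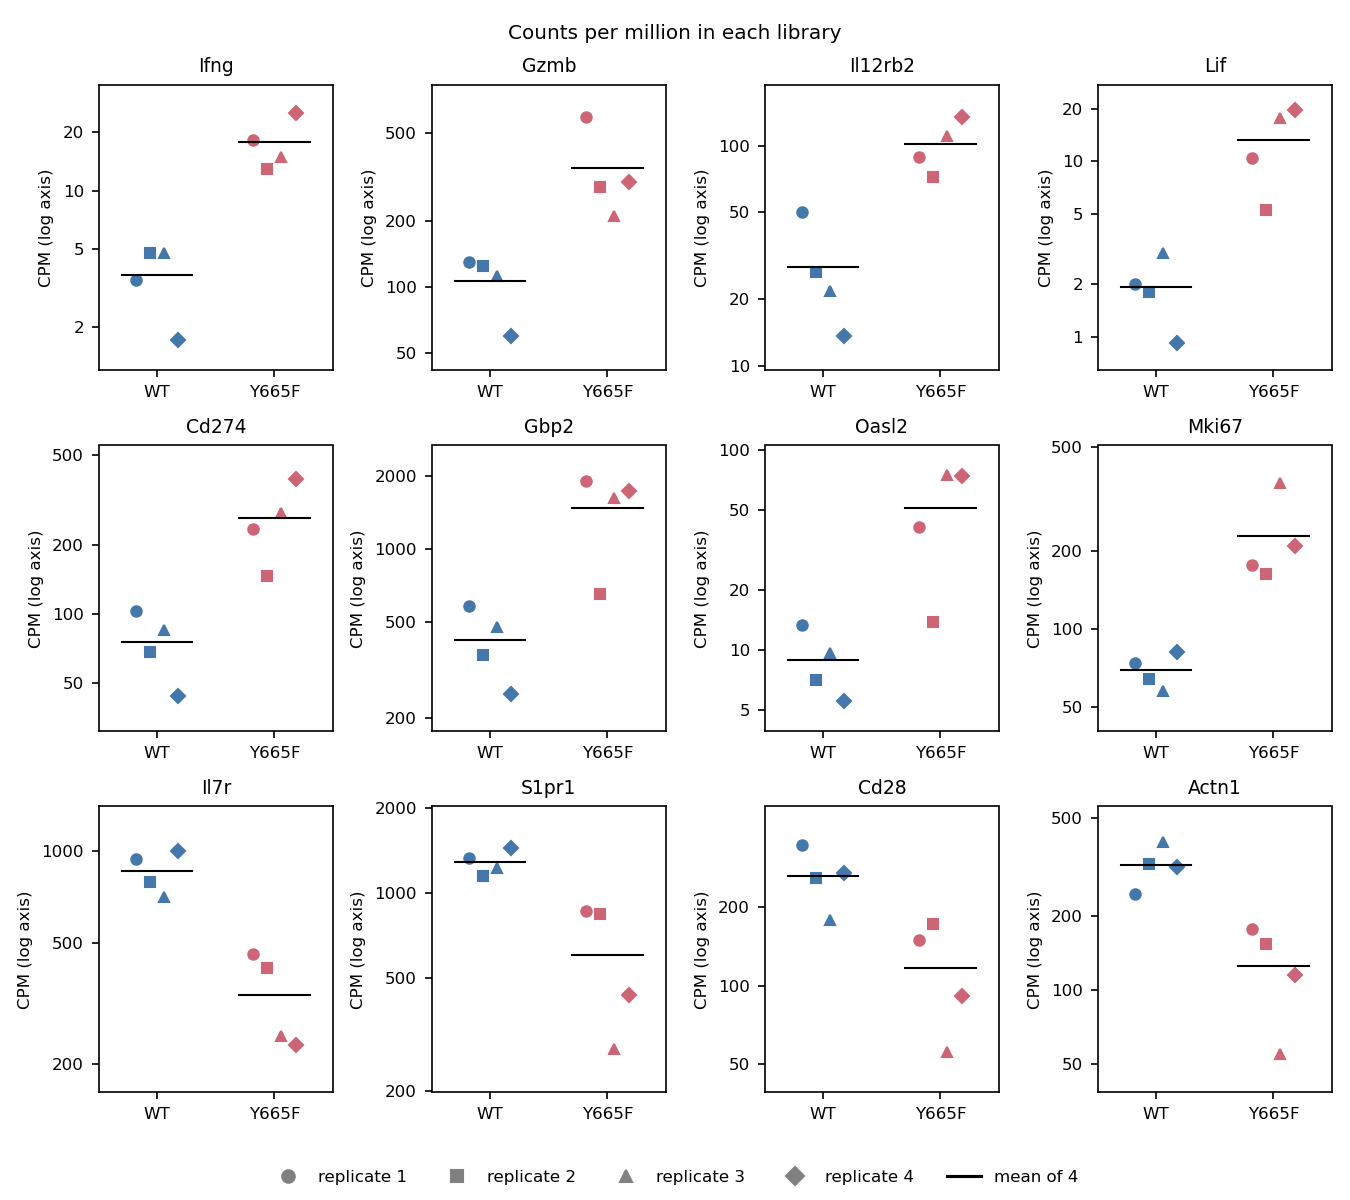
CPM (log axis) of 12 genes in the 4 WT and 4 Y665F libraries, with a symbol for each replicate and a line at the mean of 4. Ifng, Gzmb, Il12rb2, Lif, Cd274, Gbp2, Oasl2 and Mki67 lie higher in all 4 Y665F libraries, and Il7r, S1pr1, Cd28 and Actn1 lower, with Y665F replicate 2 the closest to WT for Gbp2 and Oasl2.

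Interferon-stimulated genes were the pathway list with the most calls. Of 32 type I interferon-stimulated genes, 9 were called higher and 0 lower, with a list median of 1.00 that became 0.53 without Y665F replicates 3 and 4, against 0.07 and -0.04 over all genes tested. Oasl2, a member of the antiviral OAS family, was at 13.3, 7.08, 9.64 and 5.57 CPM in WT and 41.4, 13.8, 75.6 and 74.5 CPM in Y665F cells (2.52 ± 0.41, edgeR adjusted p = 0.0034). Y665F replicate 2 was just above the WT range. Ifit3, whose family binds viral RNA, was at 17.6 to 30.3 CPM in WT and 98.9, 30.0, 92.7 and 141 CPM in Y665F cells, so that Y665F replicate 2 lay within the WT range (2.02 ± 0.33). Oas2 was at 5.64 to 13.2 CPM in WT and 23.2, 11.6, 47.3 and 84.9 CPM in Y665F cells (2.26 ± 0.42), and its change was 1.01 without Y665F replicates 3 and 4 (edgeR adjusted p = 0.573) and was not called without Y665F replicate 4 alone. Rsad2, the antiviral enzyme viperin, rested on the libraries that stood apart: it was at 5.39 and 3.12 CPM in Y665F replicates 1 and 2, within the WT range of 1.44 to 6.49 CPM, and at 335 and 24.9 CPM in replicates 3 and 4, and its log2 fold change was 4.35 with them and -0.04 without them.

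The guanylate-binding proteins and immunity-related GTPases, which are induced by interferon gamma, held 3 genes called higher of 20, with a list median of 0.77. Gbp2 was at 582, 365, 473 and 252 CPM in WT and 1904, 649.8, 1616 and 1728 CPM in Y665F cells (1.82 ± 0.33, edgeR adjusted p = 0.00579), without overlap and again with Y665F replicate 2 the closest to WT. Gbp10 rose by 1.97 ± 0.41. Gbp8 was at 108 to 210.0 CPM in WT, 198 CPM in each of Y665F replicates 1 and 2 and 399.9 and 398 CPM in replicates 3 and 4 (1.02 ± 0.26). Among 9 interferon regulatory factors, 1 was called higher, Irf8, and 1 lower. Irf8, which is also a dendritic cell and B cell factor, was at 8.98 to 23.9 CPM in WT and at 39.7, 20.3, 61.6 and 59.6 CPM in Y665F cells, where replicate 2 lay within the WT range (1.53 ± 0.38). Irf1 was not called (0.51 ± 0.32) and was at 293 and 238 CPM in WT replicates 1 and 4 and at 691 and 1038 CPM in WT replicates 2 and 3, a spread wider than the difference between the group means of 565 and 806.7 CPM.

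Promoters of the genes above were searched for the STAT dimer motif GAS, spelled TTCNNNGAA, which reads the same on both strands, and for the interferon response motif ISRE, searched as a repeat of GAAA with 2 bases between, or of TTTC on the other strand. A GAS motif was present within 250 bases before to 50 after the RefSeq start in 1538 of 16439 tested genes with a promoter entry (9.36%), and an ISRE in 654 (3.98%). The shares were 25 and 12 of 181 genes called higher (13.8% and 6.63%), and 3 and 2 of 62 genes called lower (4.84% and 3.23%). These are descriptions with no test. The stretches that follow are shown because they belong to genes described here, with the motif in capitals, 5′ to 3′ on the gene's strand.
Ifng, GAS, chr10:118440796-118440815: tTTCAGAGAAtcccacaaga
Il12rb2, GAS, chr6:67376293-67376321: gttcccttttTTCTCAGAAccgcactaag
Gzmb, GAS, chr14:56262285-56262307: ggcaggagttTTCATAGAAagca
Irf8, GAS, chr8:120736177-120736205: caaaagtgatTTCTCGGAAagagagcgct
Pros1, GAS, chr16:62854205-62854233: tgcgaagagcTTCCAGGAAatgtcccagt
Il7r, GAS, chr15:9530000-9530028: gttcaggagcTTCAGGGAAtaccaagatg
Cish, GAS, chr9:107296649-107296677: ccgcccagttTTCCTGGAAagttcttgga
Gbp2, ISRE, chr3:142620594-142620623: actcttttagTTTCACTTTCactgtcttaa
Ifit3, ISRE, chr19:34583363-34583392: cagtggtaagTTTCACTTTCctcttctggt
Rsad2, ISRE, chr12:26456553-26456582: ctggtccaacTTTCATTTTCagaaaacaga
Stat2, ISRE, chr10:128270266-128270295: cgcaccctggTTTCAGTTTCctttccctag
Coordinates are those of GRCm38.p6, and Il12rb2, Gzmb, Il7r and Rsad2 lie on the minus strand. The GAS motif occurred near a gene that rose (Ifng), a gene that fell (Il7r) and a gene that was not called (Cish). Cish and Irf8 each held a second GAS motif and Ifit3 a second ISRE that are not printed. No GAS or ISRE was found in this window for Lif or Cd274.

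Of 34 cell cycle and DNA replication genes 4 were called higher and 0 lower, and 14 lay higher in every Y665F library than in every WT library. Over all genes tested 1031 of 22313 (4.62%) did so, and 700 of 12727 at 1 CPM or more. The list median was 0.64, or 0.45 without Y665F replicates 3 and 4. Mki67, the proliferation marker Ki-67, was at 73.9, 63.8, 57.4 and 81.0 CPM in WT and 176, 162, 363 and 209 CPM in Y665F cells (1.72 ± 0.40, edgeR adjusted p = 0.0265). The licensing factor Cdc6 was at 3.91 to 8.63 and 12.7 to 20.3 CPM (1.36 ± 0.30), Ccna2, which encodes cyclin A2, at 7.57 to 11.7 and 18.5 to 35.4 CPM (1.24 ± 0.28) and the maintenance methylation factor Uhrf1 at 16.3 to 32.5 and 36.9 to 60.7 CPM (1.04 ± 0.27). For these 4 genes Y665F replicates 1 and 2 were also above all WT libraries, but without Y665F replicates 3 and 4 none passed edgeR's test (adjusted p = 0.561 for Mki67, 0.397 for Cdc6, 0.376 for Ccna2 and 0.542 for Uhrf1), nor did any with the B cell or red cell covariate.

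Signalling genes downstream of receptors included Map3k8, the kinase TPL2, at 30.8 to 40.6 CPM in WT and 93.1, 111, 159 and 177 CPM in Y665F cells (1.88 ± 0.31, edgeR adjusted p = 0.00374). The early response gene Ier3 was at 2.74 to 4.57 CPM in WT and 17.5, 12.0, 12.5 and 15.1 CPM in Y665F cells, and its change of 2.04 ± 0.31 was 2.08 ± 0.35 without Y665F replicates 3 and 4, where it stayed called (edgeR adjusted p = 0.0283). Its 4 Y665F values lay close together, unlike those of most genes called higher. Dusp10, a phosphatase of MAP kinases, rose by 1.69 ± 0.32. Ier3 and Dusp10 were the 2 called of 25 AP-1 and early response genes. The helper-lineage transcription factors called higher were Runx3 and Nfil3 (1.26 ± 0.30), 2 of 21.

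Of 24 genes of naive and resting T cells 3 were called lower and 0 higher, and 12 lay below all WT libraries in every Y665F library. Over all genes tested 1171 of 22313 (5.25%) did so, and 1122 of 12727 at 1 CPM or more. The list median was -0.66, or -0.34 without Y665F replicates 3 and 4. The median was -0.17 over all genes at 1 CPM or more and -0.07 without those libraries. S1pr1, the receptor that lets T cells leave lymphoid organs, was at 1323, 1144, 1222 and 1442 CPM in WT and 862, 840.3, 282 and 435 CPM in Y665F cells (-1.08 ± 0.27, edgeR adjusted p = 0.0364). The call was lost with RLE scaling, library totals, DESeq2 and both marker covariates, among others, and the change was -0.59 without Y665F replicates 3 and 4 (edgeR adjusted p = 0.638). The cytoskeletal crosslinker Actn1 was at 247 to 399.6 CPM in WT and 177, 155, 54.9 and 115 CPM in Y665F cells (-1.36 ± 0.28), and Tdrp fell by 1.29 on the log2 scale. The related receptor S1pr4 fell as well (-1.60 ± 0.37), so that of 18 chemokine and lipid chemoattractant receptors 2 were called lower and 1, Ccr1, higher.

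The T cell markers themselves lay lower, with a list median of -0.74, and -0.35 without Y665F replicates 3 and 4. Of 16 tested, 2 were called lower, Cd28 and Trat1, an adaptor of the T cell receptor complex (-1.44 ± 0.26). An alternative chosen after the data were seen set library sizes by the summed T cell markers. With it the median over all genes moved from 0.07 to 0.59, and the genes called lower went from 85 to 18. Neither Il7r nor S1pr1 stayed called. Il7r was lower by 0.88 on the log2 scale (edgeR adjusted p = 0.0256), short of the minimum change of 1. S1pr1, at -0.69, no longer passed the test (edgeR adjusted p = 0.0515). Changes of genes that fell are therefore given relative to a scaling under which T cell markers fell too.

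Among the genes with the largest falls, Gprc5b, an orphan receptor, was at 11.7 to 14.1 CPM in WT and 5.09, 3.68, 1.22 and 2.05 CPM in Y665F cells (-2.01 ± 0.41). The RNA-binding protein gene Mex3b was at 15.003 to 19.8 CPM in WT and 1.22 to 6.94 CPM in Y665F cells (-1.84 ± 0.33). Clec2d, a ligand of the NK receptor family Nkrp1, was at 482, 203, 185 and 566 CPM in WT and 136, 117, 93.3 and 75.5 CPM in Y665F cells (-1.76 ± 0.30, edgeR adjusted p = 0.00466). Its WT libraries split into a high and a low pair, and both pairs were above every Y665F library. The sialyltransferase gene St8sia6 (-1.63 ± 0.28), the membrane protein gene Itm2a (-1.58 ± 0.30), the mitophagy kinase gene Pink1 (-1.60 ± 0.31), the selenoprotein gene Sepp1 (-1.45 ± 0.30) and the ribosomal protein gene Rps29 (-1.73 ± 0.33) also fell, each with no overlap between the groups.

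Neutrophil markers and other genes known from myeloid cells were among the largest rises. S100a8 and S100a9, which encode the subunits of calprotectin, were at 1.405 to 3.83 and 1.71 to 5.65 CPM in WT and at 19.8 to 88.1 and 27.3 to 93.6 CPM in Y665F cells (4.02 ± 0.53 and 3.68 ± 0.48, edgeR adjusted p = 0.00103 for each). Y665H cells with both interleukins also lay above WT, at 8.57 to 24.2 CPM for S100a8 and 6.28 to 29.1 CPM for S100a9. Of 14 tested neutrophil markers 7 were called higher and 0 lower, the median was 2.76, and it was 1.96 without Y665F replicates 3 and 4. The granule protein genes Ngp (3.49 ± 0.58) and Ltf (3.33 ± 0.63) were among them. The integrin Itgam (1.67 ± 0.36) was the 1 gene called of 18 macrophage and monocyte markers. Of those 18, 8 had a positive change, and the list median was -0.11. Il1rn, the IL-1 receptor antagonist, was at 0.853 to 1.83 CPM in WT and 13.01, 6.59, 17.7 and 12.4 CPM in Y665F cells (3.001 ± 0.41, edgeR adjusted p = 0.00124) and stayed called without Y665F replicates 3 and 4 (2.68 ± 0.45, edgeR adjusted p = 0.0283). The inflammasome gene Nlrp3 (2.54 ± 0.51), the chemokine receptor gene Ccr1 (2.21 ± 0.48), the lipid transporter gene Abca13 (3.35 ± 0.67), the guanine deaminase gene Gda (2.84 ± 0.65) and Slfn4, of the Schlafen family (4.55 ± 0.75), rose too. Without Y665F replicates 3 and 4 their changes were 1.33 for Nlrp3, 1.80 for Ccr1, 1.89 for Abca13, 1.31 for Gda and 2.52 for Slfn4, none of them called, and Gda was at 228 CPM in Y665F replicate 3 against 22.7 to 45.6 CPM in the other 3. Slfn4 was the 1 gene called of 7 in its family. Whether these reads came from neutrophils was not tested.

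The remaining large rises were in genes outside the marker lists. Pros1, the gene for protein S, was at 8.07 to 10.3 CPM in WT and 41.8, 55.4, 119 and 106 CPM in Y665F cells (3.14 ± 0.44, edgeR adjusted p = 0.00162). Fam19a3, a chemokine-like secreted protein gene, was at 11.7 to 14.97 CPM in WT and 41.6, 78.5, 136 and 164 CPM in Y665F cells (2.96 ± 0.45), and Frmd4b at 4.79 to 5.27 and 12.4 to 58.3 CPM (2.69 ± 0.41). Each of these 3 genes had a narrow WT range, and Y665F replicates 1 and 2 already lay above it. The leukotriene receptor gene Cysltr2 (2.64 ± 0.49), the actin regulator gene Enah (2.34 ± 0.37) and the protein kinase A inhibitor gene Pkib (3.43 ± 0.56) were above WT in all 4 Y665F libraries. Pkib was at 9.20, 6.52, 76.6 and 23.8 CPM in Y665F replicates 1 to 4, and without replicates 3 and 4 the changes were 1.59 for Pkib, 1.59 for Cysltr2 and 1.72 for Enah, none of them called. Mir6236 had 5.37 to 18.9 CPM in WT and 20.7, 455, 63.1 and 706 CPM in Y665F cells, and its 2 highest libraries were those with the most Rn45s reads, 31053 and 42889 CPM.

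Of 13 tested red cell markers 5 were called higher, and of 17 B cell markers 1, Pax5, with list medians of 2.52 and 1.90 that became 0.28 and -0.66 without Y665F replicates 3 and 4. The red cell gene Slc4a1 and the antigen-processing gene H2-DMb1 had their high values in Y665F replicates 3 and 4 alone. Slc4a1, the anion exchanger band 3, was at 238 and 17.2 CPM there and at 0.499 to 3.09 CPM in the other 6 libraries. H2-DMb1 was at 23.5 and 5.72 against 0.301 to 2.00 CPM. Of 11 MHC class II genes 2 were called higher, with a list median of 1.30 that became 0.08 without those libraries.

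Lists of metabolic and survival genes gave no calls by edgeR's quasi-likelihood test: 0 of 19 glycolysis and glucose uptake genes (median -0.48), 0 of 10 amino acid transport genes (-0.20), 0 of 25 cholesterol and fatty acid synthesis genes (-0.28), 0 of 20 BCL2 family genes (-0.15) and 0 of 16 MHC class I and immunoproteasome genes (-0.22). Without Y665F replicates 3 and 4 these medians were -0.06, 0.13, -0.14, -0.03 and -0.07, and under the scaling to T cell markers the last 4 were above 0 while the median of all genes was 0.59. Over genes at 1 CPM or more the median was -0.17, and 0.35 under the scaling to T cell markers.

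**Figure D3:**
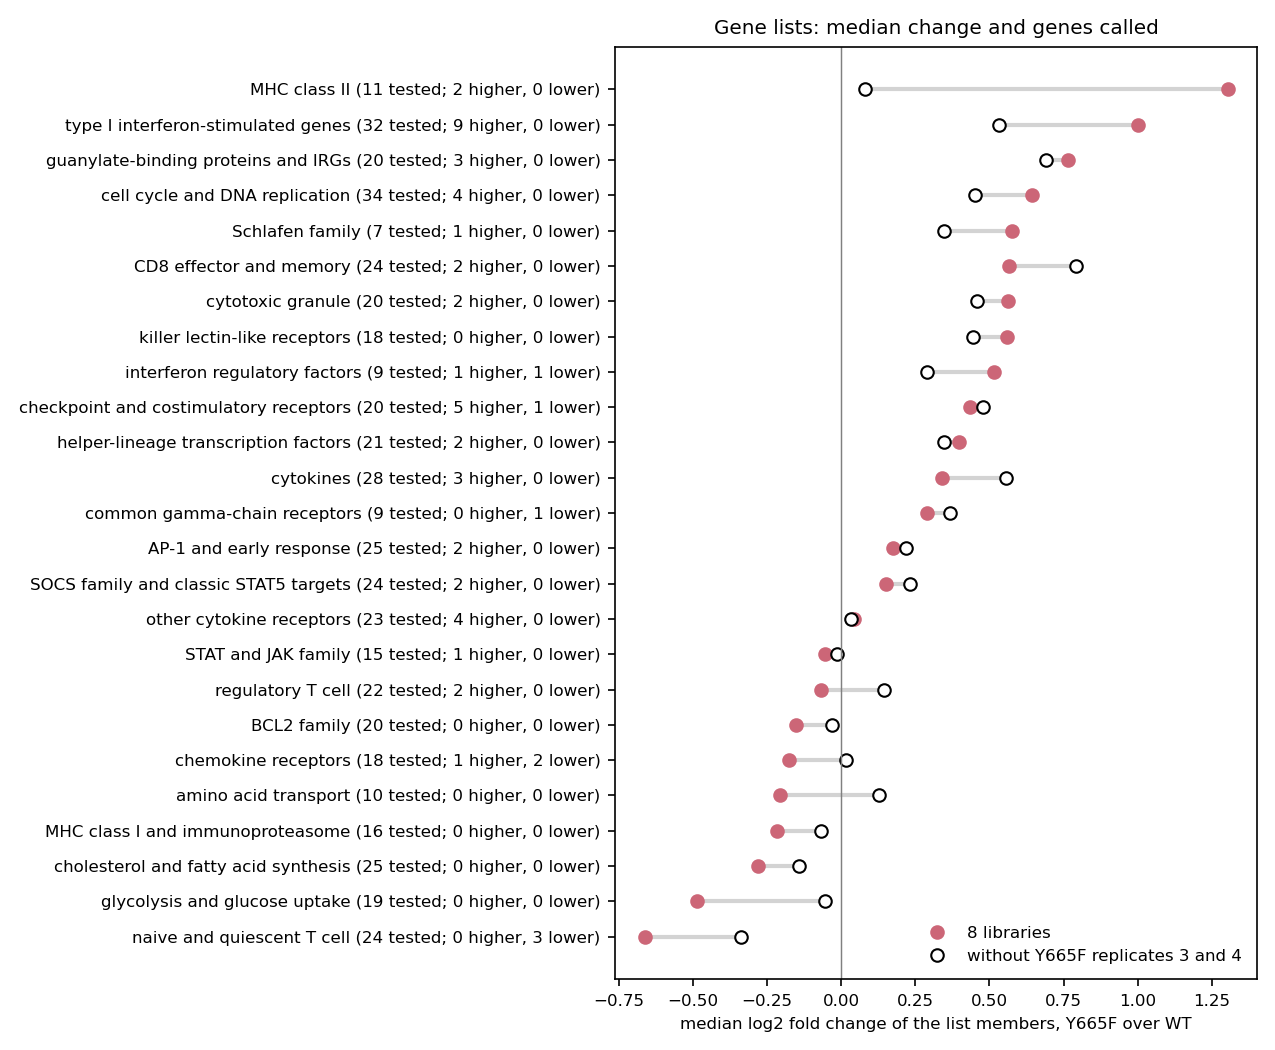
Median log2 fold change (Y665F over WT) of the tested members of each pathway list in all 8 libraries (filled) and without Y665F replicates 3 and 4 (open), with the number tested and called beside each name. The MHC class II median moves from 1.30 to 0.08, while the guanylate-binding protein median stays at 0.77 and 0.69 and the naive T cell median stays negative at -0.66 and -0.34.

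The balance of CD8 and CD4 reads differed between the groups. The ratio of Cd8a to Cd4 reads was 1.84, 1.81, 1.81 and 1.54 in WT and 3.79, 3.79, 5.56 and 5.41 in Y665F replicates 1 to 4, with no overlap. The log2 ratio was higher by 1.38 in Y665F cells (two-sided exact permutation test, p = 0.0286, the smallest that 4 against 4 libraries allow) and by 1.12 without Y665F replicates 3 and 4. Cd4 fell, from 302, 347, 372 and 369.6 CPM to 218, 206, 79.0 and 117 CPM (-1.16 ± 0.28, edgeR adjusted p = 0.029), while Cd8a was at 556 to 674 and 439.5 to 826 CPM (0.14 ± 0.20, edgeR adjusted p = 0.703). With Cd8b1, the gene for the CD8 beta chain, in place of Cd8a the difference was 0.40 (exact permutation p = 0.143). Cd8b1 was at 260.4 to 475 CPM in WT and at 373, 281, 72.9 and 154 CPM in Y665F cells, and its reads per Cd8a read were 0.468 to 0.704 in WT and 0.451, 0.3598, 0.166 and 0.243 in Y665F replicates 1 to 4. This last ratio was computed after the values were seen and was not tested.

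**Figure D4:**
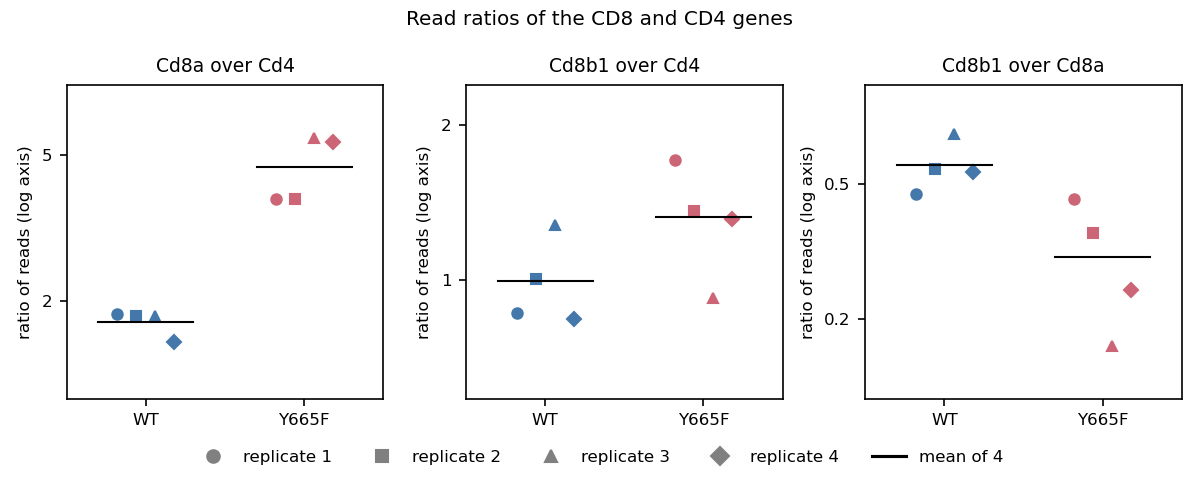
Ratios of reads (log axis) of Cd8a to Cd4, Cd8b1 to Cd4 and Cd8b1 to Cd8a in the 4 WT and 4 Y665F libraries, with a line at the mean of 4. Cd8a over Cd4 separates the groups, at 1.54 to 1.84 and 3.79 to 5.56, and Cd8b1 over Cd8a is lowest in Y665F replicates 3 and 4.

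The Y665F effect in these T cells was compared with that in whole spleen of the same genotypes, 7 Y665F and 4 WT libraries, to see which changes belonged to the stimulated T cells. The materials differ in cell types and in culture, which cannot be told apart. In spleen 28 of 22884 genes were called higher (0.122%) and 25 lower (0.109%). The effect differed between T cells and spleen for 1674 genes (7.32%) by edgeR's quasi-likelihood test of the interaction at an adjusted p under 0.05, and for 211 without Y665F replicates 3 and 4. The genes that follow were named from their T cell values, which enter this test too, so a large difference was favoured by their choice. Ifng changed by -0.09 in spleen, a difference of 2.32 ± 0.42 (edgeR adjusted p = 0.0012), and Il12rb2 by -0.19, a difference of 2.03 ± 0.31 (edgeR adjusted p = 0.000266). Il7r changed by 0.17 in spleen, a difference of -1.54 ± 0.25 (edgeR adjusted p = 0.000427). For Gzmb no difference was detected, with 1.44 in spleen and a difference of 0.24 ± 0.50 (edgeR adjusted p = 0.804). Cish was called higher in spleen (1.78, edgeR adjusted p = 0.0065) and not in T cells, but the difference of -1.19 ± 0.46 did not pass the test (edgeR adjusted p = 0.0987). The 3 genes called higher in both were Cd163l1, a scavenger receptor family member (1.45 in T cells and 2.48 in spleen), 5830411N06Rik (2.01 and 2.80) and Neb, which encodes nebulin (1.10 and 1.10).

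**Figure D5:**
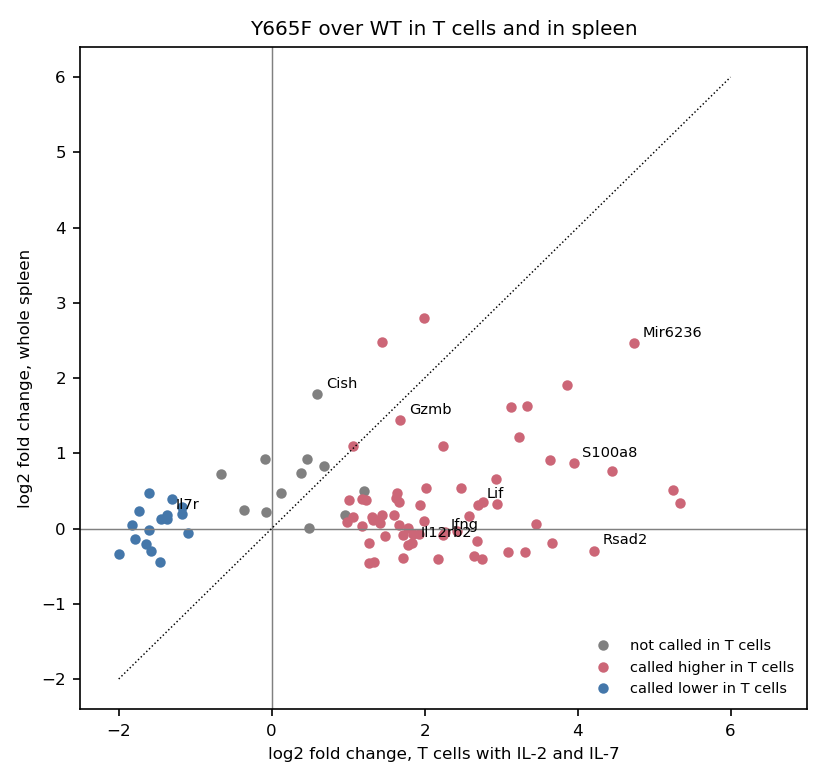
Log2 fold change (Y665F over WT) of the named genes in T cells with IL-2 and IL-7 (horizontal) and in whole spleen (vertical), coloured by their call in T cells, with a dotted line of equal change. Ifng and Il12rb2 lie near 0 on the spleen axis, at -0.09 and -0.19, while Gzmb lies close to the dotted line and Cish above it.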

How the data were processed

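The deposited files hold whole-number counts of reads per gene for each library. The authors selected T cells from spleen with a negative selection kit, made ribosome-depleted stranded total RNA libraries, trimmed the reads with Trimmomatic 0.36, aligned them with STAR to mm10 and counted them with HTSeq 0.9.1; the strand setting and the annotation release are not given in the sources used here. The extract protocol in the labels speaks of another tissue than the sample labels do. Each file lists 24421 genes and 5 closing HTSeq lines, which were left out of library sizes. Of 13 mitochondrial genes looked for, 0 were found among the listed genes, so mitochondrial reads could not be assessed. Most immunoglobulin constant genes were not used here, and neither were the transduced CD4 T cell libraries.

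Genes with at least 10 reads over the 15 splenic T cell libraries (Y665F and WT with interleukins, Y665H with interleukins, and Y665F without) were fitted in edgeR 4.0.16 (R 4.3.3) with TMM scaling, so that the groups shared 1 estimate of the spread, and the contrast of Y665F and WT cells with interleukins was tested by quasi-likelihood. CPM are counts scaled to the reads on genes, with TMM factors, and ± gives the SE of a log2 fold change. The interaction fit used these 15 and 16 spleen libraries. Simulated counts, in which 200 genes had a known change, were used to test the fit. Alternatives used DESeq2 1.42.0, other scalings, filters, covariates and left-out libraries. Members, gene lists and tests were chosen with earlier results of these data known. Genes were named from the 15 largest rises and 15 largest falls among called genes that averaged 5 CPM or more and whose groups did not overlap, outside the markers of other cell types, immunoglobulins and globins; from genes that the study discusses; and from each list as up to 4 called members per direction at 1 CPM or more, or 2 where none was called. Cd4, Cd8b1, Rn45s, Lars2, Cenpf, Exo1, Chek1, Fancd2, Cd163l1, 5830411N06Rik and Neb were added after their values were seen. No 2 replicates of a group agreed within sampling noise. Promoter stretches are RefSeq's for GRCm38.p6, with an entry for 69 of 91 genes of the text, and Stat5b was placed by GENCODE. A few genes are not reported here.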

Additional observations from a re-analysis of the deposited data

Results flagged for a closer look

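In groups of 4 libraries, 1 library lay far from the other 3 for several values, by Dixon's criterion. It was met in 17 of 200 groups tested, and chance meets it in about 1 of 20 groups. Y665F replicate 3 was the high one for Rsad2 (335 CPM), S100a8 (88.1 CPM), S100a9 (93.6 CPM), Ngp (72.9 CPM), Ltf (35.7 CPM), Slc4a1 (238 CPM), Pax5 (47.0 CPM) and Gda (228 CPM), and for the summed red cell markers (1746 CPM) and neutrophil markers (346 CPM). Y665F replicate 1 was high for the summed macrophage and monocyte markers (407 CPM). WT replicate 1 was high for Gzma (196 CPM), Lars2 (906 CPM) and the summed NK cell markers (379 CPM), WT replicate 3 for Slc4a1 (3.09 CPM), and WT replicate 4 low for Socs1 (9.71 CPM) and Il1rn (0.853 CPM). The cause of these values was not tested.

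The Y665F effect differed between T cells with interleukins and whole spleen for the following named genes, by edgeR's quasi-likelihood test of the interaction. The genes were named from their T cell values, which enter this test too. The differences are those with Y665F replicates 3 and 4 included, where 1674 genes passed the test, against 211 without them. Without those 2 libraries the T cell change itself was -0.60 for Slc4a1, -0.04 for Rsad2 and 0.04 for Lifr. It was -0.73 for Pax5 and 0.42 for H2-DMb1. Each value is the log2 fold change in T cells minus that in spleen. Cytokine and receptor genes differed by -1.54 for Il7r, 2.03 for Il12rb2, 2.38 for Lif, 2.32 for Ifng, 2.11 for Csf1, 3.85 for Lifr, 2.63 for Il1rn, 2.40 for Il1r2 and 2.58 for Ccr1. Activation ligands, receptors and T cell genes differed by 1.77 for Cd274, 2.00 for Pdcd1lg2, 1.80 for Cd80, 1.73 for Cd86, 1.78 for Entpd1, -1.36 for Cd28, -1.56 for Trat1, -1.03 for S1pr1, -2.08 for S1pr4, -1.46 for Cd4 and -1.39 for Cd8b1. Interferon-related genes differed by 1.59 for Irf8, 0.91 for Stat2, 2.01 for Gbp2, 0.89 for Gbp8, 1.62 for Gbp10, 1.88 for Ifit3, 1.94 for Oasl2, 4.51 for Rsad2 and 3.69 for Slfn4. Signalling and division genes differed by 1.48 for Ier3, 1.31 for Dusp10, 1.91 for Map3k8, 1.34 for Nav1, 1.26 for Exo1, 1.27 for Chek1 and 1.21 for Fancd2. Neutrophil, macrophage, red cell and B cell genes differed by 3.08 for S100a8, 2.73 for S100a9, 1.23 for Itgam, 2.46 for Nlrp3, 5.01 for Slc4a1, 3.39 for Pax5 and 2.86 for H2-DMb1. Other genes differed by 3.40 for Pros1, 3.63 for Pkib, 2.26 for Fam19a3, 3.02 for Frmd4b, 2.42 for Cysltr2, 2.32 for Enah, 3.15 for Gda, 4.74 for Lars2, -1.49 for Actn1, -1.69 for Tdrp, -1.64 for Clec2d, -1.29 for Itm2a, -1.88 for Mex3b, -1.66 for Gprc5b, -1.02 for Sepp1, -1.43 for St8sia6, -1.59 for Pink1 and -1.97 for Rps29. The 2 materials differ in cell types and culture, which cannot be told apart from the effect of the interleukins.

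In the Y665F T cell libraries without interleukin, which enter no comparison here, the summed neutrophil markers were at least 89.0 CPM, above the highest of the 4 WT libraries with interleukins.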

How the results depend on the processing

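By edgeR's quasi-likelihood test 257 genes were called higher and 85 lower. The counts of higher and lower calls were 390 and 66 with RLE scaling, 832 and 121 with DESeq2, 154 and 40 with the 8 libraries alone, 880 and 528 with an RUVr factor, 94 and 40 with the B cell markers and 80 and 25 with the red cell markers as a covariate, and 5 and 0 without Y665F replicates 3 and 4 together. Without a fold minimum 137 were lower. The alternatives chosen after the data were seen gave 1127 and 18 (scaling to the T cell markers) and 5 and 0 (reads on no feature as a covariate, 1115 at an unadjusted p under 0.05). Leaving out 1 library gave 74 to 488 higher and 19 to 321 lower: 456 and 225 without WT replicate 1, 105 and 41 without 2, 157 and 43 without 3, 93 and 43 without 4, and 488 and 321 without Y665F replicate 1, 346 and 140 without 2, 130 and 42 without 3, 74 and 19 without 4. Genes whose effect differed from spleen numbered 3467 with DESeq2, 211 without Y665F replicates 3 and 4, and 660 to 3314 without 1 library. The log2 Cd8a to Cd4 difference was 0.40 with Cd8b1 (exact permutation p = 0.143) and 1.12 without Y665F replicates 3 and 4 (exact permutation p = 0.0667, the smallest possible). Causes were not tested.

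Deviations of same-numbered libraries correlated at -0.48, 0.29, -0.44 and -0.36. Libraries of different numbers were not correlated for comparison, so whether replicate numbers pair the libraries is not settled. With a replicate block 117 genes were called higher and 38 lower, and the Cd8a to Cd4 difference of 1.38 had an exact permutation p of 0.125, the smallest that pairing allows.

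Of 91 genes of the text, 79 were called. 38 stayed called without Y665F replicate 4, 53 without Y665F replicate 3, 45 without WT replicate 2 and 5 without Y665F replicates 3 and 4. Over 1911 pairs of gene and alternative 26 reversed. Stat5a became 0.101 with RLE, 0.1004 with DESeq2, 0.0911 with totals, 0.0611 with filterByExpr, 0.0248 with the red cell covariate, 0.211 with the no-feature covariate and 0.53 scaled to T cell markers, and ranged from -0.176 to 0.209 without 1 library. Socs1 became 0.0901 with RLE, 0.0902 with DESeq2, 0.0843 with totals, 0.0571 with filterByExpr, 0.47 scaled to T cell markers and 0.13 with the no-feature covariate, and ranged from -0.282 to 0.0688 without 1 library. Stat5b became 0.20 scaled to T cell markers. Without Y665F replicates 3 and 4 and with the no-feature covariate, Rsad2 became -0.0442 and -0.36, Slc4a1 -0.60 and -1.51, and Pax5 -0.73 and -1.21. With that covariate Lifr became -0.78 and Cd8b1 0.24. Y665F replicate 3, with 2851451 reads on genes, limits what is seen of low genes.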

Other observations

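Further genes of DNA replication and repair, chosen after their values were seen, were higher in every Y665F library than in every WT library. The kinetochore gene Cenpf was at 6.05 to 12.3 CPM in WT and 19.0 to 42.1 CPM in Y665F cells (log2 fold change 1.64 ± 0.39). The exonuclease gene Exo1 rose by 1.496 ± 0.31, the checkpoint kinase gene Chek1 by 1.43 ± 0.30 and the Fanconi anaemia gene Fancd2 by 1.36 ± 0.30. The 3 genes called higher in both T cells and spleen separated the T cell groups too: Cd163l1 was at 4.74 to 10.2 CPM in WT and 13.1 to 29.3 CPM in Y665F cells, 5830411N06Rik at 4.49 to 6.69 and 14.6 to 33.1 CPM, and Neb at 113 to 176 and 206 to 327 CPM.

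Lars2, the mitochondrial leucyl-tRNA synthetase gene, was at 905.7, 46.1, 86.8 and 187 CPM in WT replicates 1 to 4 and at 767.6, 22026, 2239 and 20904 CPM in Y665F replicates 1 to 4. Its 2 highest libraries, Y665F replicates 2 and 4, were the 2 highest for Rn45s and Mir6236. In the Y665F T cells without interleukin, Lars2 was at 2967, 14769 and 6441 CPM and Rn45s at 4618, 16830 and 9756 CPM. The cause was not tested.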
